A study of Mus musculus with 5 samples.

Results

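The 10 genes analysed here mark immature granule neurons and neuroblasts, and were followed through RNA-Seq of the mouse dentate gyrus (DG). The set (Neurog2, Eomes, Neurod1, Sox4, Sox11, Igfbpl1, Draxin, Dcx, Stmn1 and Calb2) was taken by symbol as a transcript gauge of adult neurogenesis, and all 10 were found among the 23420 symbols of the deposited files. Wild-type CD1 mice, an outbred strain given as 4 months of age, were housed in 3 ways. LD (locked disk) mice lived alone with a disk that could not turn, RUN mice lived alone with a voluntary running disk, and CE (complex environment) mice lived in groups with a locked disk and tunnels. A single library per group was sequenced from pooled DG RNA of 8 mice. The 2 further libraries, L-RUN and H-RUN, each pooled RNA of 4 of the same RUN mice, those with the shorter and those with the longer running distances. The RUN, L-RUN and H-RUN libraries therefore share their animals, while L-RUN and H-RUN hold different mice. No group had a replicate library, so no difference below has a replicate check and no p-value is given.

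The DG is a site of continued neurogenesis in the adult rodent. Stem cells of the subgranular zone give rise to dividing intermediate progenitors, which express the transcription factors Eomes (Tbr2) and Neurog2. Their daughters become neuroblasts and then immature granule neurons, which express Neurod1, Sox4, Sox11, Igfbpl1 and the microtubule-binding protein doublecortin (Dcx), and pass through a phase of calretinin (Calb2) expression before they mature into calbindin-positive granule cells. Voluntary running is a well-known stimulus of this lineage. Several of the genes are not restricted to new neurons: Neurod1 and Stmn1 are also expressed by other neurons, and Calb2 by hilar mossy cells and a class of interneuron.

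Values are regularized log values, which are normalized read counts on a log2 scale, shrunk by the authors' software towards each gene's mean. A difference of 0.3, the cut-off used by the study, corresponds to about a 1.23-fold difference. The sequencing depth of the libraries is unknown. The only repeat measurement was RUN, which could be set against the value expected from its own mice, that is L-RUN and H-RUN averaged in equal parts on the linear scale (the mixture). Across the 13550 genes with a mean value of at least 5, called expressed here, this comparison gave a technical SD of 0.0365 for a difference between 2 libraries, with 0.0222 to 0.0473 across 10 bins of expression. It covers library preparation and sequencing but not differences between mice. The technical SD given for a gene below is that of its bin. For the 10 immature neuron genes, RUN lay between 0.064 below (Sox11) and 0.058 above (Stmn1) the computed mixture. Of the 10 genes, 8 were expressed by this definition. Eomes (mean 4.68) and Neurog2 (mean 4.67) were not, and the shrinkage limits how far such low genes can differ.

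Promoter sequence is shown for Neurod1 and Sox11, which shared the order L-RUN highest and CE lowest, and for Sox4, the close relative of Sox11 whose order differed (all described below). Each run is read 5′ to 3′ on the gene's strand, ends at or before the annotated start and leaves out annotated exons (RefSeq, GRCm38.p6, the build named mm10 in the deposited data). Capitals mark CAGCTG only, an E-box of the kind that basic helix-loop-helix factors bind. Other E-boxes are not marked, such as catatg in the Neurod1 and Sox11 runs. The Neurod1 run lies at chr2:79456752-79456886, that of Sox11 at chr12:27342719-27342968 and that of Sox4 at chr13:28953714-28953949, all on the minus strand.
Neurod1: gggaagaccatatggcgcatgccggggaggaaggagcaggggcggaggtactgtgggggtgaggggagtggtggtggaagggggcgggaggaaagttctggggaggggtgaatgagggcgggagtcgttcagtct
Sox11: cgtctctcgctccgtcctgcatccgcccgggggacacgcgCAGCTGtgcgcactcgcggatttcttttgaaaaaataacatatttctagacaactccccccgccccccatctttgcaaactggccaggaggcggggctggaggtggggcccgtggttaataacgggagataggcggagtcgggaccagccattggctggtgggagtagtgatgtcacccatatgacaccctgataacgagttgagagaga
Sox4: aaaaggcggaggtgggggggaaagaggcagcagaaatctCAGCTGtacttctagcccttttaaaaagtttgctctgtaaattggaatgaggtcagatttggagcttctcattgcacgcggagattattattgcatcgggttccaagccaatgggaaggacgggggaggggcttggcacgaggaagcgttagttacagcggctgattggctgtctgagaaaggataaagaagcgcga
CAGCTG was searched in windows from 250 bases before to 50 bases after the start. It was present for 3 of the 7 immature neuron genes with a window (Sox4, Sox11 and Draxin), and for 18.3% of 27025 genes in all. The E-box letters CAGATG or their complement CATCTG were in 0 of the 7 windows, against 19.2% of all genes. ACAAAG or its complement CTTTGT, letters of the SOX motif, were in 2 (Draxin and Dcx), against 21.0% of all genes. Such matches describe the letters only.

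None of the immature neuron genes differed from LD by 0.3 or more in any library. The share of expressed genes that did so was 0.598% in CE and 1.31% in RUN, and it was 3.13% for L-RUN but 0.827% for H-RUN. The median difference of the 10 genes from LD was 0.09 in L-RUN, 0.05 in RUN, 0.02 in H-RUN and -0.02 in CE, while the median of all expressed genes lay between -0.0035 and -0.0013. Higher values than in LD were found for 9 of the 10 genes in L-RUN, 8 in RUN, 7 in H-RUN and 4 in CE, where 48.0% to 49.3% of all expressed genes were higher. Most of the 10 genes thus read higher in the running libraries, by small amounts. In bulk RNA, a change in the number of immature neurons and a change in RNA per cell cannot be told apart.

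**Figure D1:**
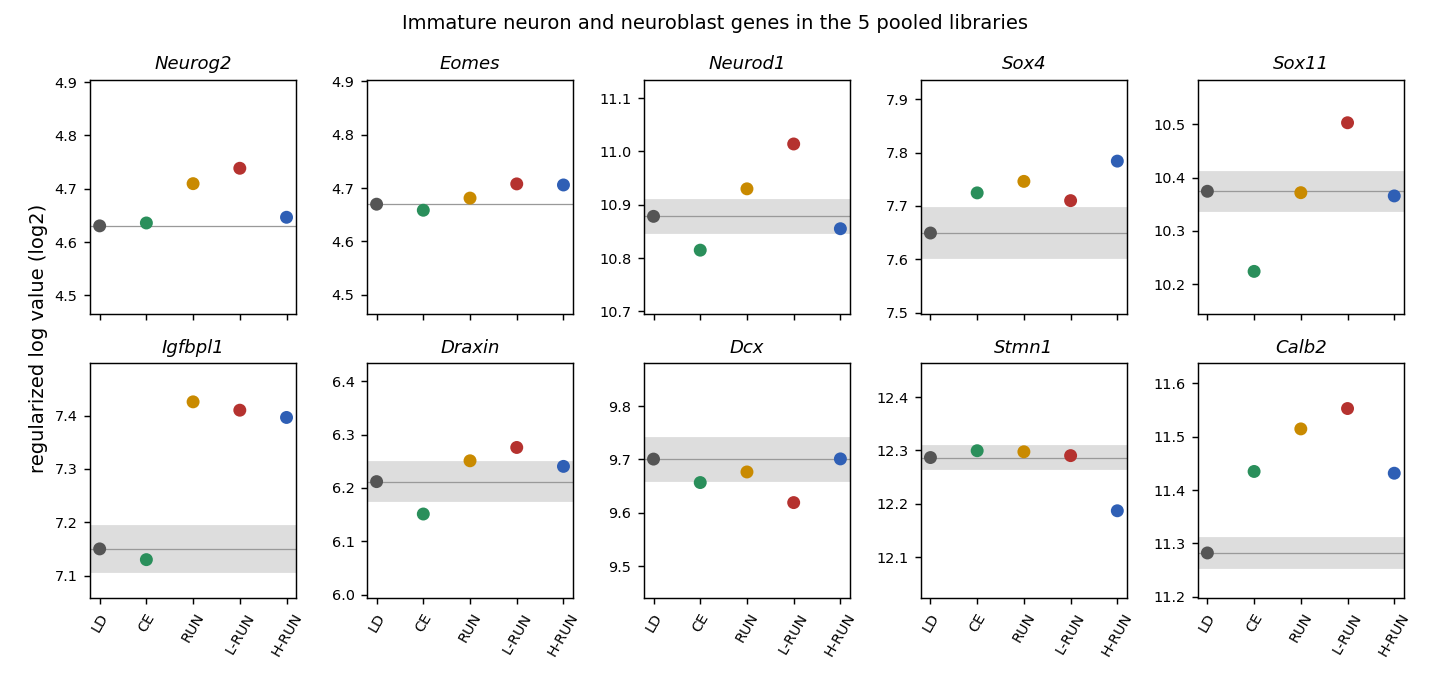
Regularized log values (log2, vertical axis, the same span in each panel) of the 10 immature neuron genes in the LD, CE, RUN, L-RUN and H-RUN libraries, 1 point per library. The grey line is the LD value and the grey band 1 technical SD of a difference to either side (no band for Neurog2 and Eomes). Igfbpl1 lies clear of the band in the 3 running libraries and Calb2 in all 4 libraries, while Dcx stays close to it.

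Igfbpl1 and Calb2 were the 2 genes that stood farthest from LD. At a lower cut-off of 0.2, they were the only ones of the 10 past it, both in RUN and L-RUN and Igfbpl1 alone in H-RUN, and none passed in CE. For Igfbpl1 this held with the trend with transcript length removed (described below) and with LD and CE averaged as the reference. For Calb2 it did not: its RUN value was 0.174 and 0.156 under these settings and its L-RUN value 0.198 and 0.194, while Sox11 passed in L-RUN at 0.245 and 0.204. Among all expressed genes, 9.93% passed 0.2 in L-RUN, 4.66% in RUN, 3.31% in H-RUN and 3.77% in CE. With 10 genes, a count of 1 or 2 says little about the list beside these shares.

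Igfbpl1 (insulin-like growth factor binding protein-like 1, chr4:45809468-45826923) encodes a secreted protein enriched in newborn neurons. Its value was 7.15 in LD, 7.13 in CE, 7.43 in RUN, 7.40 in H-RUN and 7.41 in L-RUN. The 3 running libraries lay together and apart from the 2 libraries of mice with a locked disk. The difference from LD was 0.28 in RUN, 0.25 in H-RUN and 0.26 in L-RUN, or 18.6 to 21.1% more transcript and 5.6 to 6.3 times its technical SD of 0.0438. In CE the difference was -0.02, less than 1 technical SD. L-RUN and H-RUN, pools of different mice, were 0.01 apart. In H-RUN, 1.48% of expressed genes differed from LD by at least as much in size, in RUN 1.65% and in L-RUN 4.79%. Igfbpl1 also had the widest span of the 10 genes over the 5 libraries, 0.30.

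Calb2 (calretinin, chr8:110137502-110168210) encodes a calcium-binding protein of the transient immature granule neuron stage, of mossy cells and of interneurons. Its value was 11.28 in LD, 11.43 in CE, 11.51 in RUN, 11.43 in H-RUN and 11.55 in L-RUN. LD was thus the lowest library, CE and H-RUN were level, and L-RUN was the highest. The differences from LD were 0.27 in L-RUN, 0.23 in RUN and 0.15 in both H-RUN and CE, or 5.3 to 9.6 times its technical SD of 0.0282. Unlike Igfbpl1, Calb2 was higher in CE as well. Markers of mossy cells, of interneurons and of Cajal-Retzius cells were set beside it. The interneuron list covers interneurons in general, not only those that express Calb2, and Gad1 (13.28 in LD) was the largest part of its sum. The mossy cell markers Drd2, Calcrl and Csf2rb2 differed from LD by between -0.01 and 0.04 in L-RUN and by between -0.17 and 0.01 in H-RUN, and their summed level was 9.04 in LD, 9.08 in CE and L-RUN, 8.98 in RUN and 8.94 in H-RUN. Of 9 interneuron markers, 5 exceeded LD in L-RUN and 8 did so in CE but 2 did in H-RUN, and their summed level was between 14.18 and 14.28 in all libraries. Sst alone of them passed 0.3, in CE (0.34) and L-RUN (0.30), and Vip was the lowest in L-RUN (-0.10). Of 5 Cajal-Retzius cell markers, the summed level was 10.78 in LD and lower in every other library, at 10.61 to 10.71, with Reln (-0.19) the lowest and Nhlh2 (0.03) the highest in L-RUN. Only 3 of these 5 were expressed, and Reln, at 10.54 in LD, made up most of the sum. Reln has a long transcript (11699 bases), and the length trend described below was not removed here. None of these 3 marker lists held a gene at 0 in all libraries, and their part in the Calb2 values was not tested.

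**Figure D2:**
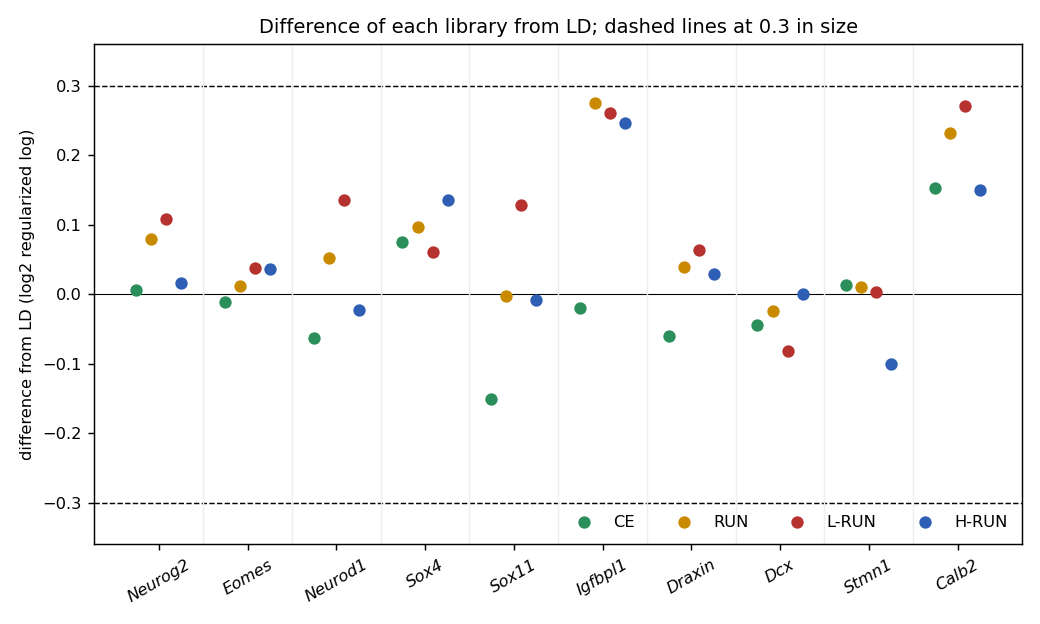
Difference of each library from LD (log2, vertical axis) for the 10 immature neuron genes, with 1 point per library and dashed lines at the cut-off of 0.3. No point reaches a dashed line, and the highest are Igfbpl1 in RUN (0.28) and Calb2 in L-RUN (0.27).

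The transcription factors of the lineage did not share 1 order of libraries. Neurog2 (chr3:127633135-127635631) and Eomes (chr9:118478212-118486132), the factors of intermediate progenitors, were barely measured. Neurog2 was at 4.63 in LD, 4.64 in CE, 4.71 in RUN, 4.65 in H-RUN and 4.74 in L-RUN. Eomes spanned 4.66 in CE to 4.71 in L-RUN, with LD at 4.67. At these levels the span of 0.11 for Neurog2 and 0.05 for Eomes cannot be set against the technical SD, which was computed for expressed genes only.

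Neurod1 (chr2:79452521-79456751) encodes the basic helix-loop-helix factor needed for the survival of newborn granule neurons. It was at 10.88 in LD, 10.81 in CE, 10.93 in RUN, 10.85 in H-RUN and 11.01 in L-RUN. L-RUN was the highest library, 0.14 above LD (4.4 times its technical SD of 0.0308), whereas H-RUN was 0.02 below LD. L-RUN exceeded H-RUN by 0.16, the widest gap between these pools among the 10 genes. Sox11 (chr12:27334264-27342574), a SoxC factor that acts in neuronal differentiation, was at 10.37 in LD, 10.22 in CE, 10.37 in RUN, 10.37 in H-RUN and 10.50 in L-RUN. Sox11 was thus level in LD, RUN and H-RUN, higher by 0.13 in L-RUN and lower by 0.15 in CE. The measured RUN value of Sox11 lay 0.06 below the mixture, the widest disagreement between these repeat measurements among the 10 genes. Sox4 (chr13:28948919-28953713), the other SoxC factor of the set, was at 7.65 in LD, 7.72 in CE, 7.75 in RUN, 7.78 in H-RUN and 7.71 in L-RUN. All 4 libraries lay above LD, by 0.06 to 0.13, and none of these differences reached 3 times its technical SD of 0.0471. Sox4 was thus highest in H-RUN and Sox11 in L-RUN, though for Sox4 these pools were only 1.6 technical SDs apart.

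Of the 10 genes, 4 had their highest value in L-RUN and their lowest in CE, namely Eomes, Neurod1, Sox11 and Draxin. Of the 8 expressed ones, 3 did so, and 7.59% of all expressed genes had this order. The order was chosen after the values were seen.

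Draxin (chr4:148098437-148130698), which encodes a secreted axon guidance protein, was at 6.21 in LD, 6.15 in CE, 6.25 in RUN, 6.24 in H-RUN and 6.28 in L-RUN. Its differences from LD were between -0.06 and 0.06, at most 1.7 times its technical SD of 0.0367.

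The cytoskeletal genes of migrating neuroblasts exceeded LD by at most 0.0108 in the running libraries as deposited (Stmn1 in RUN). With the length trend removed, Dcx was above LD in all 3, by 0.046 to 0.069. Dcx (chrX:143855842-143933311), the most widely used marker of immature granule neurons, was at 9.70 in LD, 9.66 in CE, 9.68 in RUN, 9.70 in H-RUN and 9.62 in L-RUN. The 5 libraries spanned 0.08, and only L-RUN, 0.08 below LD, lay more than 2 technical SDs (0.0403 each) from it. In H-RUN, 99.6% of expressed genes differed from LD by at least as much as Dcx. The 5 expressed genes with the most similar values over the 5 libraries, after each gene's mean was removed, were Usp14, Slc35c2, Armcx3, Wdr11 and Jarid2, at Euclidean distances of 0.0111 to 0.0156 where the median gene was at 0.119. Genes near to Dcx by this measure vary little across the libraries, by 0.080 to 0.094. For Igfbpl1, the nearest genes were Necab3, Mapk4, Ier5, Agmat and Nudt13, at distances of 0.0226 to 0.0475 where the median gene was at 0.312. Each of these 5 spanned 0.29 to 0.31.

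Stmn1 (stathmin, chr4:134468320-134473843) encodes a protein that destabilizes microtubules. It was at 12.29 in LD, 12.30 in CE, 12.30 in RUN, 12.19 in H-RUN and 12.29 in L-RUN. The other 4 libraries were within 0.0127 of each other, and H-RUN was 0.10 lower than LD, 4.5 times its technical SD of 0.0222. RUN, which holds RNA of the H-RUN mice, was 0.06 above the value computed from the mixture. This disagreement is itself larger than the technical SD of 0.0222, so the multiple of 4.5 may overstate how firm the H-RUN difference is.

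Differences from LD that reached 3 technical SDs were found for 2 of the 8 expressed genes in CE (Sox11 and Calb2) and for 2 in RUN (Igfbpl1 and Calb2). L-RUN had 4 (Neurod1, Sox11, Igfbpl1 and Calb2) and H-RUN had 3 (Igfbpl1, Stmn1 and Calb2). All were higher than in LD except Sox11 in CE and Stmn1 in H-RUN. By the same rule, 32.7% of expressed genes passed in L-RUN, 24.3% in RUN, 18.8% in H-RUN and 23.7% in CE. The shares of the immature neuron genes were near these in CE and RUN, and with 8 genes the remaining counts are 1 or 2 genes above them.

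The running libraries were also compared with each other and with CE. No gene of the 10 differed by 0.3 between L-RUN and H-RUN (1.54% of expressed genes did), and none by 0.2 (4.93%). L-RUN was higher than H-RUN for 8 of the 10, with a median of 0.06. Of all expressed genes, 48.6% were higher in L-RUN than in H-RUN, with a median of -0.003. The exceptions among the 10 were Dcx (-0.08) and Sox4 (-0.07). Between CE and RUN, none passed 0.3 (0.834% of expressed genes), and Igfbpl1, at 0.30 lower in CE (-0.296), passed 0.2 (3.48%). CE was lower than RUN for 9 of the 10 genes, with a median of -0.08, and Stmn1 was level in both. Of all expressed genes, 50.4% were higher in CE than in RUN, with a median of 0.0007. After Igfbpl1, the widest gaps among the 10 were those of Sox11 (-0.15) and Neurod1 (-0.12).

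The differences moved with transcript length. Across 12765 expressed genes with an annotated transcript, the difference from LD had a Spearman correlation with the length of the longest transcript of -0.51 in L-RUN, -0.49 in RUN, -0.37 in H-RUN and -0.33 in CE, a description across genes that share the LD library. Genes with long transcripts thus tended to read lower than in LD. Dcx (9074 bases) and Sox11 (8311 bases) have the longest transcripts of the 10, and Stmn1 (1060 bases) and Calb2 (1431 bases) the shortest. With the trend removed by a smooth curve, Dcx was above LD in every library, by 0.02 in CE, 0.07 in RUN, 0.06 in H-RUN and 0.05 in L-RUN, in place of differences between -0.08 and 0.00. Sox11 moved to 0.24 in L-RUN and stayed below LD in CE, at -0.09. Stmn1 moved below LD in all 4 libraries, to -0.03 in CE and -0.15 in H-RUN. Calb2 moved down to 0.198 in L-RUN, 0.174 in RUN and 0.114 in H-RUN, all under 0.2. Igfbpl1, at 2864 bases, hardly moved, with 0.26 in RUN, 0.24 in H-RUN and 0.25 in L-RUN. The correction thus turned the direction of Dcx and Stmn1 in CE, RUN and L-RUN and of Sox11 in RUN and H-RUN, and it turned none of those of Igfbpl1 and Calb2.

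**Figure D3:**
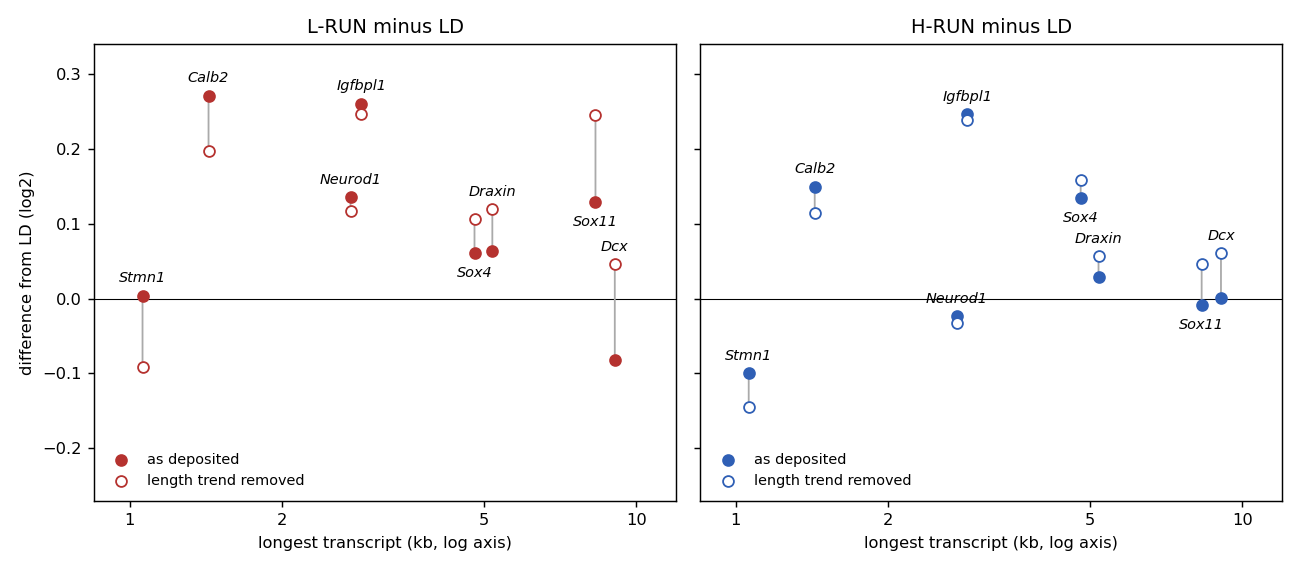
Difference from LD (log2, vertical axis) against the longest transcript of the gene (kb, log axis) in L-RUN and H-RUN, for the 8 expressed immature neuron genes. Filled points are the values as deposited and open points those after the trend of all expressed genes with length was removed. In L-RUN, Dcx moves from -0.08 to 0.05 and Sox11 from 0.13 to 0.24, while Igfbpl1 moves from 0.26 to 0.25.

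Levels between genes were compared per kb of the longest transcript in LD. On this scale (regularized log value minus the log2 of the length in kb), Stmn1 was highest at 12.20, followed by Calb2 (10.77), Neurod1 (9.43), Sox11 (7.32), Dcx (6.52), Igfbpl1 (5.63) and Sox4 (5.39). Draxin (3.83), Neurog2 (3.48) and Eomes (2.84) were the lowest. The 3 highest are the genes that other neurons are also known to express. Reads of overlapping annotated genes could not be told apart from those of some of the set. The counting was not stated to use strand, and strand cannot separate overlaps on the same strand. On the opposite strand, 2616 exonic bases of Sox4 are overlapped by Gm26735, 154 of Neurod1 by Gm26755 and 118 of Eomes by Gm33460. On the same strand, 201 of Neurod1 are overlapped by Cerkl and 66 of Stmn1 by Gm23634. Of these overlapping genes, only Cerkl has a value in the files used here.

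Other genes of the lineage were mostly within 0.3 of LD. Differences of these and of all other marker lists are as deposited. The length trend was not removed from them, so genes with long transcripts tend to read lower. Of 10 proliferation genes, none passed 0.3 in any library, and their medians were within 0.01 of LD in all 4 libraries. Only 8 of these proliferation genes were expressed, Ccnb1 and Cdk1 were not, and Top2a and Cenpf were low as well. The medians thus rest partly on low, shrunken values, which limits what they show about proliferation. Mki67, the standard marker of dividing cells, differed from LD by -0.06 in CE and L-RUN, -0.07 in RUN and 0.03 in H-RUN. Ccnd2, a cyclin of neural progenitors, gave differences of -0.22 in L-RUN, -0.17 in RUN and -0.11 in H-RUN, and Tyms was the highest of the list in L-RUN (0.09). Of 11 stem cell genes, 1 passed 0.3, which was the intermediate filament gene Vim in L-RUN (0.32), and their medians were 0.09 in L-RUN, -0.001 in RUN, -0.02 in H-RUN and 0.08 in CE. Nes, the gene of another intermediate filament of stem cells, was the lowest of them in L-RUN (-0.11). Vim differed from LD by 0.15 in RUN, 0.09 in CE and 0.01 in H-RUN. Its order of the highest libraries (L-RUN, RUN, CE) was also that of the summed level of leptomeningeal markers described below. Vim was lowest in LD, however, and that sum in H-RUN. The part of leptomeningeal tissue in the Vim values was not tested. Of 22 further genes of immature neurons, 1 passed 0.3, Dpysl3 (a collapsin response mediator), at -0.31 in RUN and -0.37 in L-RUN. Their medians were -0.003 in L-RUN, 0.05 in RUN and 0.03 in both H-RUN and CE. Stmn3, a relative of Stmn1, was the highest of them in L-RUN (0.17), and Sema3c, a guidance gene, in H-RUN (0.24).

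Some markers of mature granule cells passed 0.3. Of 7, 2 were past 0.3 above LD in L-RUN, C1ql2 (0.37) and Plk5 (0.36), and 1 below, Prox1 (-0.41), the homeobox factor of granule cell identity. Their longest transcripts have 2000 bases for C1ql2, 2112 for Plk5 and 7913 for Prox1, and the length trend was not removed. C1ql2 also passed in RUN (0.37) and H-RUN (0.40). The median of the 7 was -0.05 in RUN, -0.08 in each of H-RUN and L-RUN, and -0.14 in CE.

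**Figure D4:**
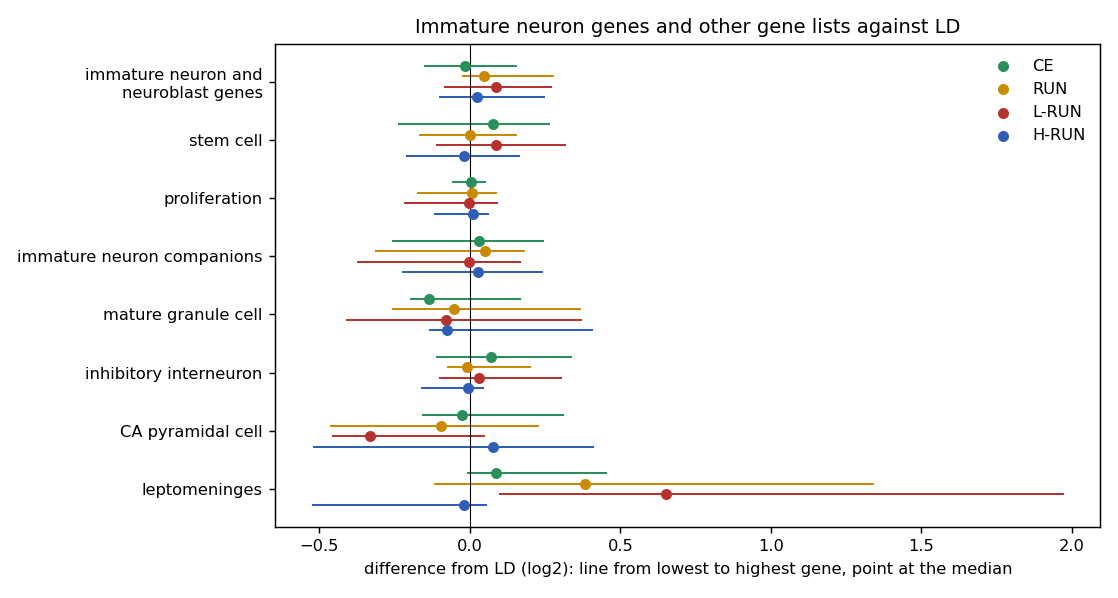
Differences from LD (log2, horizontal axis) of the 10 immature neuron genes and 7 other gene lists in CE, RUN, L-RUN and H-RUN. Points are medians and lines run from the lowest to the highest gene of a list. The immature neuron genes stay within 0.3 of LD, whereas leptomeningeal markers reach 1.97 in L-RUN.

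Markers of tissue next to the DG moved with some of these results. All 10 leptomeningeal markers were higher than in LD in L-RUN, 7 of them past 0.3, with a summed level of 14.02 in L-RUN, 13.46 in RUN, 12.77 in CE, 12.51 in LD and 12.39 in H-RUN. Ptgds (11.64 in LD and 13.61 in L-RUN) was the largest part of this sum. In L-RUN, the 7 were, from the highest, Ptgds (1.97), Igf2, Aldh1a2 (0.76), Slc6a13 (0.69), Col1a2 (0.67), Slc22a6 (0.63) and Col1a1 (0.40), and Lum was the lowest of the 10 (0.10). All of the 7 but Col1a1 also passed in RUN, while Ptgds, Dcn, Col1a1 and Col1a2 passed in CE (0.30 to 0.45) and Dcn alone, at -0.52, in H-RUN. The order of the highest libraries (L-RUN, RUN, CE) is that of Calb2, but Calb2 was lowest in LD and the leptomeningeal sum in H-RUN. L-RUN was also the highest library for Neurod1 and Sox11. Of 7 markers of CA pyramidal cells, 6 were lower than in LD in L-RUN, 4 past 0.3, with a summed level of 15.18 in LD and 15.08 in L-RUN, and from 15.14 to 15.17 in the other libraries. The 4 were Fibcd1 (-0.46), Pou3f1 (-0.42), Wfs1 (-0.33) and Mpped1 (-0.33), and Bok was the highest (0.05). Nptx1, at 14.93 in LD, made up most of the summed level of these markers. Fibcd1 was also past 0.3 in CE (0.31), RUN (-0.46) and H-RUN (-0.52), and Bok in H-RUN (0.41). Their part in the differences of L-RUN and RUN was not tested. In H-RUN, the leptomeningeal sum was below that of LD, with 4 of the 10 markers higher than in LD and a median of -0.02. Igfbpl1 was 0.25 and Calb2 0.15 above LD there. The part of leptomeningeal tissue in these 2 values was not tested. The lists of other cells that express SoxC genes or Stmn1 held smaller differences: the medians in L-RUN were -0.06 for 7 oligodendrocyte precursor markers, from Bcas1 (-0.16) to Olig1 (0.09), and -0.07 for 6 endothelial markers, from Flt1 (-0.43) to Cdh5 (0.01). Flt1 alone of these passed 0.3, in RUN (-0.31) too. In H-RUN they were 0.02 and -0.02. The medians in L-RUN were 0.004 for 6 choroid plexus markers, from Kl (-0.07) to Ttr (0.13, and 0.62 in CE), of which only these 2 were expressed so that the median rests on low, shrunken values, and -0.03 for 5 thalamic markers, from Prkcd (-0.37, and -0.40 in CE) to Tcf7l2 (0.06). No marker list held a gene at 0 in all libraries.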

How the data were processed

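RNA was isolated by the authors from microdissected DG, pooled in equal amounts per group and sequenced as polyA libraries. The authors trimmed adapters, mapped reads to mm10 (TopHat2 2.0.10), assigned them to RefSeq genes (HTSeq) and made regularized log values over all 5 libraries at once (DESeq2 1.10.1). These log2 values were deposited and used here as they are. Read counts were not used here, so depth and counting error are unknown, and no count model was fitted.

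Differences were taken between libraries, with cut-offs of 0.3 and 0.2 and of 3 technical SDs, and the background was the 13550 genes with a mean of at least 5. The technical SD was taken from the residual of RUN against the mixture of L-RUN and H-RUN weighted by mice pooled (median absolute deviation, in 10 bins of expression). Pool sizes were taken from the methods of the study and groups from the labels. Lengths and positions were from GENCODE M21 (GRCm38), and 94.2% of expressed genes had a length. The trend was a lowess curve (fraction 0.3). Genes named were the 10 genes, in each other list every gene past 0.3 against LD and the highest and lowest in L-RUN, and the 5 nearest to Dcx and to the gene with the widest span. The genes and the 13 lists were chosen with earlier results of these data known. Scripts were tested on simulated data. Trends were fitted in statsmodels 0.14.6 and figures drawn in matplotlib 3.10.9, under Python 3.11.15 with pandas 2.3.3 and numpy 2.4.6. Mki67, Sema3c, Csf2rb2, Gad1, Nptx1, Top2a, Cenpf, Ccnb1 and Cdk1 were named outside this rule, after their values were seen. Genes whose exons overlap those of the set were named for their positions. Alternatives were median centring, quantile normalization, another baseline, other cut-offs and filters, and removal of the length trend.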

Additional observations from a re-analysis of the deposited data

Results flagged for a closer look

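For 3 of the immature neuron genes, the CE library and a running library lay on opposite sides of LD, each by more than 1 technical SD of the gene. Each group was 1 library, so these differences between groups were not tested. The share of all expressed genes that meet this rule was not computed, so the count of 3 says nothing particular about the list. Sox11 was 0.15 below LD in CE and 0.13 above it in L-RUN, and CE minus L-RUN was -0.28. Neurod1 was 0.06 below LD in CE, 0.05 above it in RUN and 0.14 above it in L-RUN, and CE was thus apart from RUN by -0.12 and from L-RUN by -0.20. Draxin was 0.06 below LD in CE, 0.04 above it in RUN and 0.06 above it in L-RUN, which gave -0.10 for CE minus RUN and -0.12 for CE minus L-RUN. With the length trend removed, Draxin in CE was at -0.033, within its technical SD of 0.0367, and no longer met the rule. No gene of the set had L-RUN and H-RUN on opposite sides of LD by this rule.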

How the results depend on the processing

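The count of immature neuron genes past 0.3 was 0 in each group, and it stayed 0 with median centring, with the length trend removed, and with LD and CE averaged as the baseline of the running groups. A cut-off of 0.4 and a minimum mean of 7 could only give 0 as well. With quantile normalization, 1 gene (Calb2, 0.301) passed in L-RUN, and 0 in the others. At 0.2, the counts were 2 in both RUN and L-RUN, 1 in H-RUN and 0 in CE, and at 3 technical SDs they were 4 in L-RUN, 3 in H-RUN and 2 in both RUN and CE. The median of the genes moved by more than the technical SD of 0.0365 in 2 cases, to 0.082 in RUN with the length trend removed (8 genes) and to 0.128 in L-RUN with a minimum mean of 7. The H-RUN median of 0.022 fell to 0.0004 with that minimum and was 0.059 with the length trend removed, so its size is not settled. The technical SD itself was 0.0365 with the mixture taken as the mean of log values. Removing the length trend moved 18 of 32 single values by more than their technical SD and changed the sign of 8, those of Dcx in CE, RUN and L-RUN, of Stmn1 in the same groups and of Sox11 in RUN and H-RUN. With the LD and CE mean as baseline 4 of 30 signs changed and Calb2 in H-RUN went from 0.149 to 0.073, with quantile normalization 2 of 40 and with median centring 0 of 40. Depth is unknown, mice were pooled and no replicate exists, so the spread between mice is not measured.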
